A study of Mus musculus with 200 samples.

Results

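Obfc1, Cxcl14, Txnl1 and Cep97 are 4 autosomal genes, of 22033 in the tables, whose balance between the C57BL/6J (B6) and CAST/EiJ (Cast) alleles was described against developmental stage in mouse embryos. They were selected on the share of allele-informative reads that came from the B6 allele, the B6 allele fraction (BAF), and how it varied with somite number in heterozygous backcross embryos, so values of that contrast are given below as a description and carry no test. What the choice did not use is tested: the F1 litters, the backcross embryos homozygous for B6 at each gene, and the effect of each gene's own genotype and of the mother's genotype on its total expression. In mm9 coordinates all 4 lie on the minus strand, Obfc1 at chr19:47575528-47611528, Cxcl14 at chr13:56390008-56397912, Txnl1 at chr18:63822455-63852013 and Cep97 at chr16:55900001-55934968. Each is annotated as protein-coding, and no other annotated gene overlaps any of them.

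In a heterozygous embryo both alleles of a gene share the same nucleus and the same set of transcription factors, so for a gene that is not imprinted a departure of BAF from equality reads out sequence differences that act in cis. A BAF that moves with stage means that the allele-informative reads of the alleles do not rise or fall by the same factor. Obfc1, also known as Stn1, is a subunit of the CST complex, which binds single-stranded telomeric DNA and works with the DNA polymerase alpha-primase to fill in the complementary strand. Cxcl14 is a secreted CXC chemokine expressed in epithelia and skin. Txnl1 is a thioredoxin-like protein that associates with the proteasome. Cep97 is a centrosomal protein that acts with Ccp110 to cap the distal end of centrioles and hold back cilium formation.

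RNA was prepared from whole E11.5 embryos freed of extra-embryonic tissue, and poly(A) RNA was sequenced near transcript 3′ ends by 3SEQ. The F1 set held 16 embryos, every one B6/Cast throughout its autosomes, from 4 litters of reciprocal crosses (mother named first). CastxB6 litter 1 had 4 embryos, 3 of them with a somite number (41 to 43), and CastxB6 litter 2 had 4, 3 with a number (46 to 48). B6xCast litter 5 had 5, all 5 with a number (48 to 50), and B6xCast litter 3 had 3, 2 with a number (58 to 63). Stages given for a litter below are those of its numbered embryos. The backcross (N2) set held 154 genotyped embryos, 89 from 17 litters of B6 mothers and F1 fathers (B6xF1) and 65 from 12 litters of F1 mothers and B6 fathers (F1xB6), so that each gene was either B6/Cast or B6/B6. Somite number, which counts the paired blocks of trunk mesoderm and tracks age, was given for 13 of the 16 F1 embryos and for 147 N2 embryos, in which it ran from 42 to 57. No group was treated, and every allele in the study came from the B6 or the Cast strain. Embryos are numbered 1 to 8 within each F1 cross.

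F1 libraries held 15703888 to 38234229 reads and N2 libraries 245220 to 5370322. N2 embryos were sequenced in 14 lanes on 2 flowcells, and 8 lanes held embryos of B6 mothers only and 5 held embryos of F1 mothers only, so lane and mother could hardly be separated. The 8 embryo tissue markers examined (neural, muscle, heart, liver and primitive red cell genes) were all detected in every group, whereas the 7 trophoblast and decidua markers summed to a median of 0.142 reads per 1000000 library reads (RPM) in B6xCast F1, 0.201 in CastxB6 F1 and 0 in both N2 crosses, with 1 N2 embryo at 22.9. In whole embryos, fewer cells expressing a gene and less RNA per cell cannot be told apart.

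Among N2 embryos, the called genotype was B6/Cast in 72 and B6/B6 in 82 for Obfc1, 70 and 84 for Cxcl14, 74 and 80 for Txnl1, and 87 and 66 for Cep97, with 1 embryo not called at Cep97. Informative reads are counted as votes, each single nucleotide polymorphism (SNP) in a read contributing its share of 1 vote. A heterozygous embryo gave a median of 351 votes at Cxcl14, 42 at Obfc1, 7 at Cep97 and 6 at Txnl1. Cast votes in B6/B6 embryos, a background of wrong alleles and wrong genotypes, were 31 of 23760 votes at Cxcl14 (0.130%, exact 95% interval 0.0887 to 0.185), 4 of 3182.5 at Obfc1 (0.126%, 0.0343 to 0.322), 1 of 708 at Cep97 (0.141%, 0.00358 to 0.784) and 1 of 3136 at Txnl1 (0.0319%, 0.000807 to 0.178). These intervals cover counting error only. Few votes of the B6 allele were thus read as Cast, while B6 votes read from a Cast allele were not measured, since no embryo was Cast/Cast. The votes behind a single embryo's BAF were ample at Cxcl14 and few at Txnl1 and Cep97.

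Obfc1 and Cep97 had less of the B6 allele in N2 embryos with more somites, and Cxcl14 and Txnl1 had more of it. For Obfc1, embryos with at least 20 votes had a mean BAF of 0.405 ± 0.0480 (SD, n = 8) at 45 somites or fewer, 0.373 ± 0.0835 (n = 11) at 46 to 48, 0.298 ± 0.134 (n = 19) at 49 to 51 and 0.186 ± 0.134 (n = 14) at 52 or more. The 8 youngest Obfc1 embryos ran from 0.352 to 0.50 around a median of 0.391, and the 14 oldest from 0.0256 to 0.420 around 0.139, so the oldest group spread from almost no B6 transcript to the level of the youngest. Cep97, at 10 votes or more, had 0.693 ± 0.133 (n = 11), 0.638 ± 0.185 (n = 7), 0.413 ± 0.116 (n = 6) and 0.438 ± 0.184 (n = 4) in the same stages. The ranges of the first and last stages overlapped at Cep97 too, at 0.429 to 0.897 and 0.200 to 0.583.

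The Cxcl14 change in the N2 was smaller in size, with tighter groups. Its mean BAF was 0.374 ± 0.0331 (SD, n = 7), 0.380 ± 0.0326 (n = 23), 0.391 ± 0.0475 (n = 20) and 0.421 ± 0.0262 (n = 15) over the 4 stages, and the Cast allele remained the more abundant one in the mean of every stage. Txnl1 had 0.507 ± 0.0153 (n = 3), 0.523 ± 0.0430 (n = 6), 0.587 ± 0.113 (n = 7) and 0.595 ± 0.0578 (n = 5), starting at parity and standing above it later. Only 21 heterozygous embryos reached 20 votes at Txnl1, against 65 at Cxcl14 and 52 at Obfc1. The highest Txnl1 value, 0.833, came from the single embryo of lane C that had 20 votes.

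**Figure D1:**
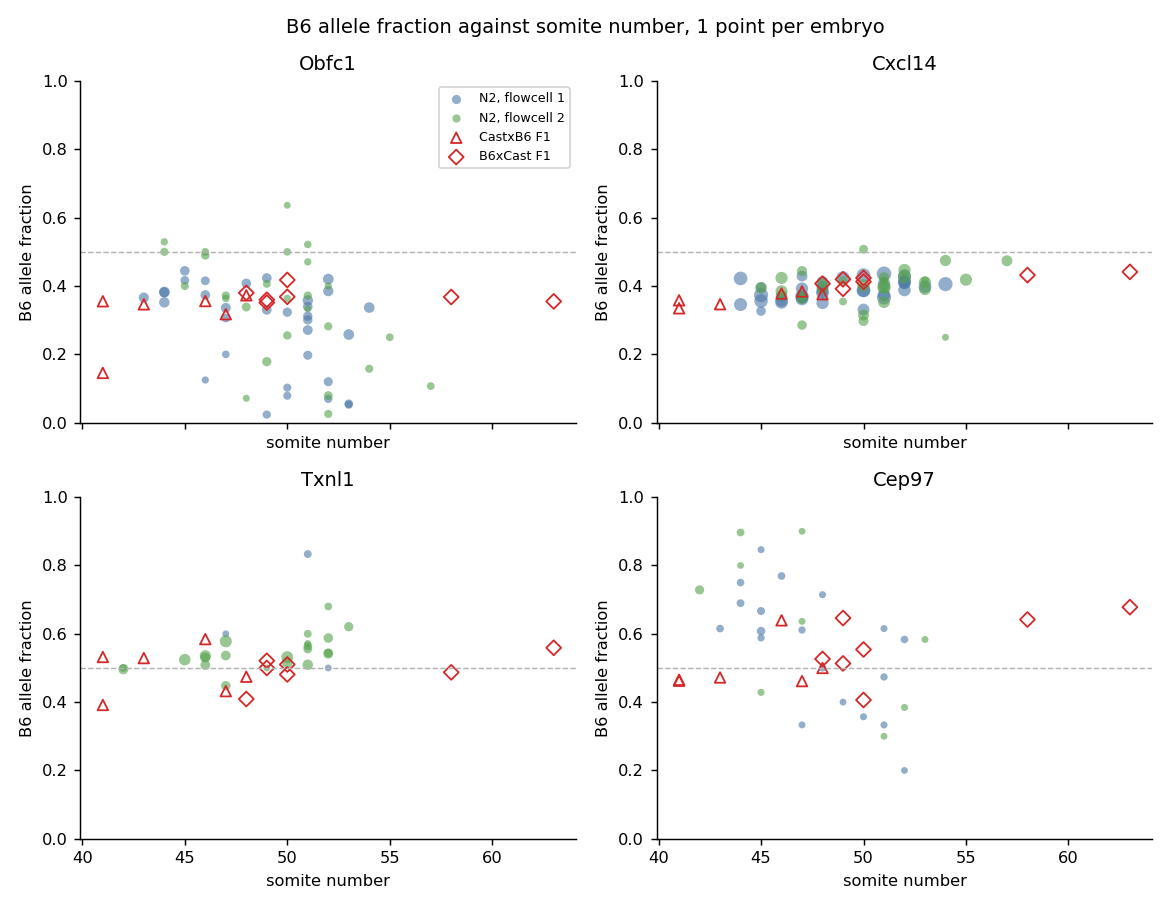
B6 allele fraction (y axis, 0 to 1) against somite number (x axis) for the 4 genes, 1 filled circle per heterozygous N2 embryo with at least 10 votes (larger with more votes, coloured by flowcell) and 1 open red symbol per F1 embryo with a somite number, with a dashed line at equal alleles. Obfc1 and Cep97 circles lie lower at later stages, Cxcl14 circles stay between 0.25 and 0.508, and Txnl1 has 25 circles.

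Spearman's rho between BAF and somite number was -0.562 for Obfc1 (52 embryos), 0.456 for Cxcl14 (65), 0.720 for Txnl1 (21) and -0.654 for Cep97 (28, at 10 votes). Across 3342 genes with 20 such embryos, 10 were called at q under 0.1, or 0.299%, among them Obfc1, Cxcl14 and Txnl1, so nothing is read from that share. Txnl1 was the gene just inside the threshold (q = 0.0784) and D19Wsu162e the one just outside it (rho = -0.441, 60 embryos, q = 0.129). Cep97 had 9 embryos with 20 votes, among which rho was -0.289, was not in that table, and is described beside them on the same measure at the lower vote minimum. For Txnl1 the value depended on the vote minimum, at 0.538 over 25 embryos with 10 votes and 0.15 over 41 with 5.

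A quasi-binomial fit weights each embryo by its votes and needs no minimum. Per somite, the log odds (natural log) of a B6 vote were -0.0655 ± 0.0180 (SE) for Obfc1, 0.0208 ± 0.00518 for Cxcl14, 0.0199 ± 0.0122 for Txnl1 and -0.137 ± 0.0249 for Cep97. Of the 4 slopes, that of Txnl1 stood closest to its error. With lane as a term they were -0.0684 ± 0.0262, 0.0332 ± 0.00844, 0.0425 ± 0.0190 and -0.111 ± 0.0490.

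BAF at Obfc1 differed between lanes more than it did at most genes. Pooled over the heterozygous embryos of a lane, it was 0.0735 in lane A (68 votes), 0.124 in C, 0.162 in I, 0.171 in H and 0.228 in B, 0.348 to 0.365 in D, E, F and G, and 0.389 to 0.468 in J, K, L, M and N. Lanes therefore took a 0.754 share of the variance of Obfc1 BAF, the 98.0th percentile of 4678 genes whose median share was 0.310. In flowcell 1, votes per 100 reads were 16.8 in lane A, 29.3 in C, 29.5 in B and 54.7 to 71.6 in D to G. In flowcell 2 they were 43.1 in H, 37.9 in I and 14.2 to 27.1 in J to N. Lanes with fewer votes per read thus had the lower BAF in flowcell 1 and the higher BAF in flowcell 2. The part of votes per read in the lane differences was not tested.

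Cxcl14 BAF was alike in all lanes, from 0.373 in lane L to 0.434 in lane I, and lanes took a 0.194 share of its variance, the 19.6th percentile. Its votes per 100 reads were 42.0 to 51.5 in every lane. Cep97 lanes ran from 0.348 in H to 0.800 in N, leaving aside 1 vote in J, with a share of 0.508 (84.7th percentile). Median somite number of the heterozygous embryos was 48.5 in lane H and 44 in lane N for that gene, so lane and stage were not balanced.

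**Figure D2:**
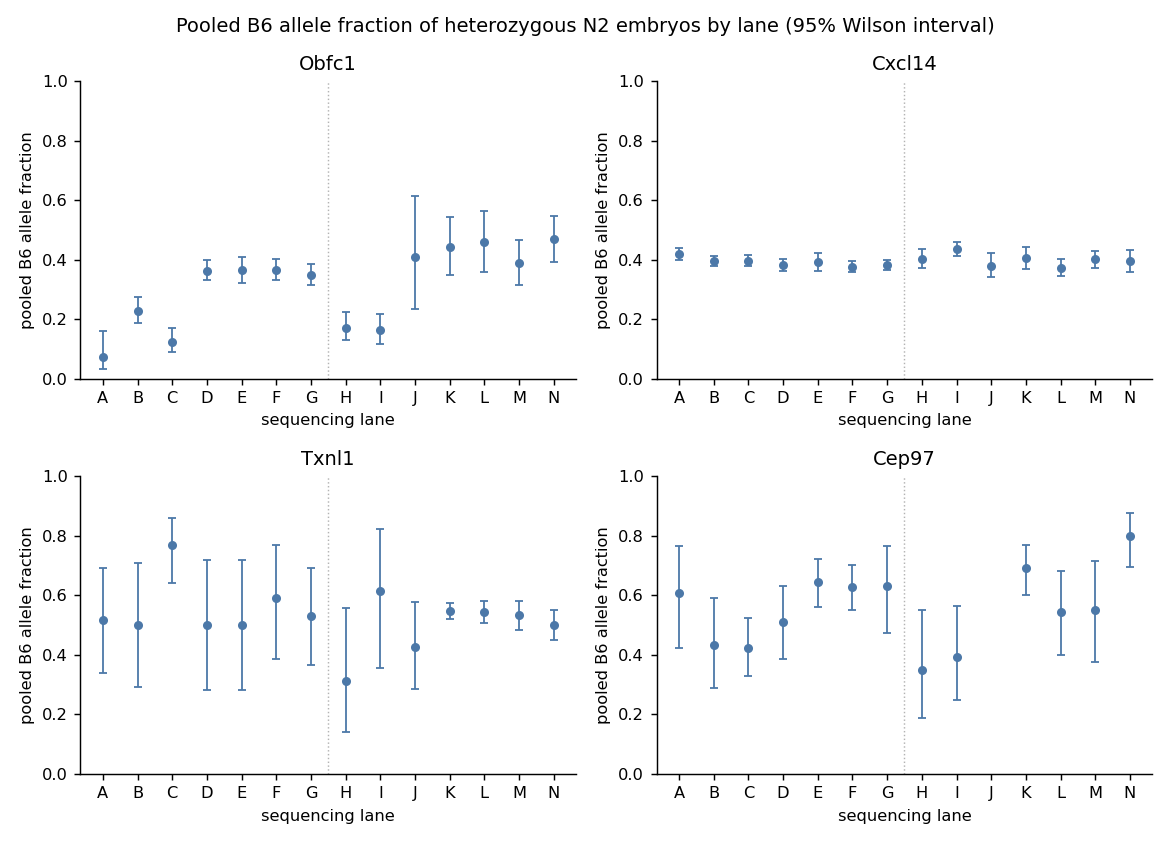
Pooled B6 allele fraction (y axis, 0 to 1) of heterozygous N2 embryos in each sequencing lane (x axis, A to N) with at least 10 pooled votes, for the 4 genes, with bars for the 95% Wilson interval and a dotted line between the flowcells. Obfc1 ranges from 0.0735 to 0.468 between lanes and Cxcl14 only from 0.373 to 0.434.

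With lane regressed out of the ranks, rho was -0.471 for Obfc1, 0.509 for Cxcl14, 0.771 for Txnl1 and -0.600 for Cep97, a setting under which 2 of the 3342 genes, or 0.0598%, were called. Leaving out each lane in turn gave -0.648 to -0.506 for Obfc1, 0.371 to 0.507 for Cxcl14, 0.636 to 0.790 for Txnl1 and -0.709 to -0.609 for Cep97. The 21 Txnl1 embryos lay in 5 lanes (C, K, L, M and N), so leaving out any of the other 9 removed no embryo of that gene. No lane turned the direction of any of the 4 genes. Within flowcell 1 and flowcell 2, rho was -0.482 and -0.650 for Obfc1, 0.492 and 0.433 for Cxcl14, and -0.639 and -0.563 for Cep97. All but 1 of the 21 Txnl1 embryos lay in flowcell 2, where rho was 0.733.

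Votes for Txnl1 came almost wholly from 4 lanes. Heterozygous embryos of lanes K, L, M and N gave 1222, 671, 402 and 352 votes at a BAF of 0.547, 0.544, 0.532 and 0.50, and each of the other lanes gave 13 to 56 votes. Total Txnl1 expression followed the same division, with lane medians of 14.4 to 32.3 RPM in lanes A to I, 123 in J and 220 to 284 in K to N. Lanes took a 0.882 share of the variance of its log2 RPM, the 99.3rd percentile of 4678 genes. For Txnl1 BAF in embryos with 10 votes the lane share was 0.718, the 97.0th percentile. Lanes C, E and G held 1 such embryo each. Lane J was also the shallowest, at 245220 to 1451110 reads per library.

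**Figure D3:**
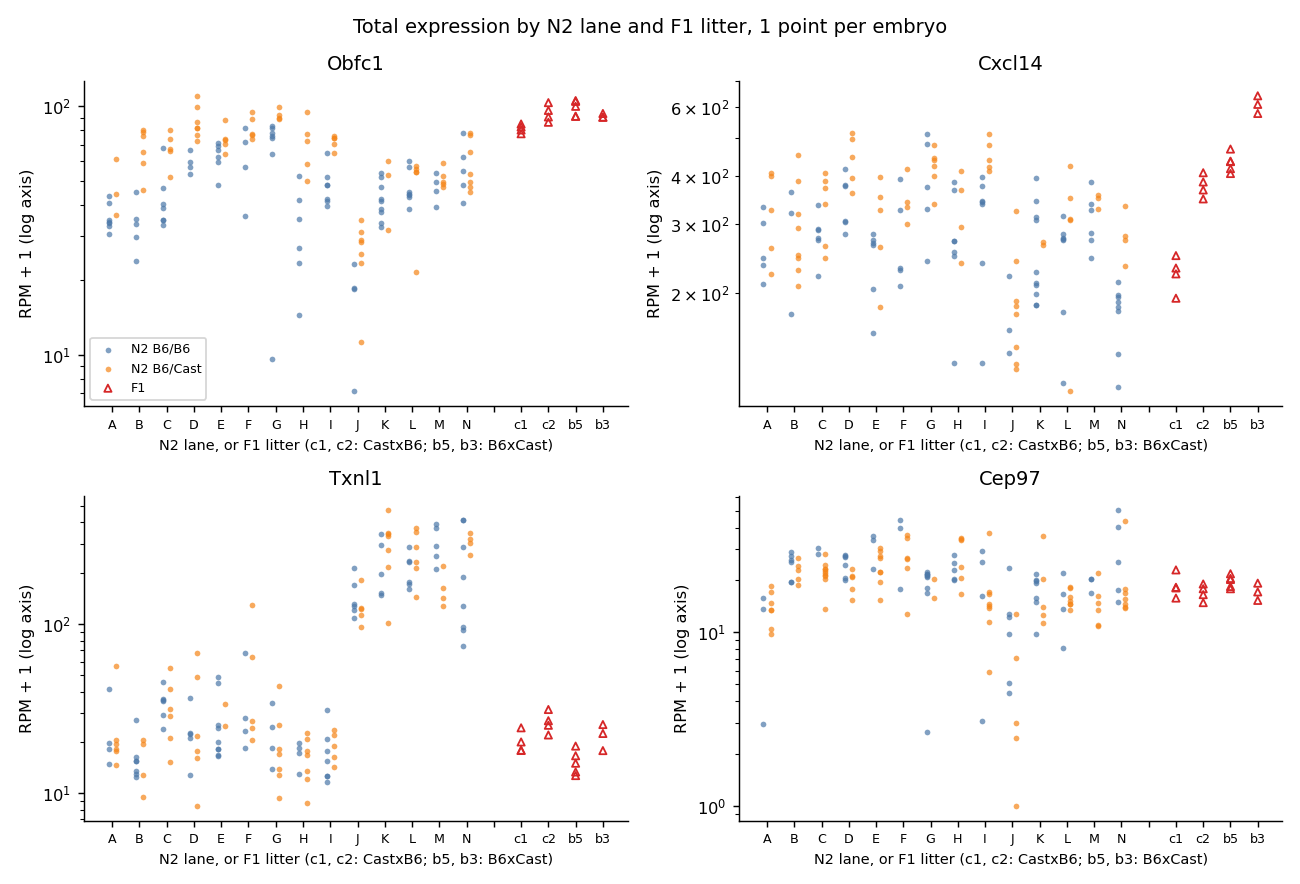
Total expression as RPM + 1 (y axis, log scale) of the 4 genes in each N2 embryo by sequencing lane and in each F1 embryo by litter (x axis), 1 point per embryo, blue for B6/B6, orange for B6/Cast and open red triangles for F1. Txnl1 has lane medians of 123 to 284 RPM in J to N and 14.4 to 32.3 in A to I, and its F1 embryos lie between 11.7 and 30.3.

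Separately by mother, rho was -0.773 (B6 mothers, 24 embryos) and -0.347 (F1 mothers, 28) for Obfc1, 0.583 (36) and 0.363 (29) for Cxcl14, 0.762 (12) and 0.448 (9) for Txnl1, and -0.662 (14) and -0.568 (14) for Cep97. Every one of the 4 kept its direction with both mothers, and each value was nearer 0 with F1 mothers. Whether the 2 values of a gene differed was not tested. Over litter means, rho was -0.504 for Obfc1 (22 litters), 0.467 for Cxcl14 (25), 0.65 for Txnl1 (9) and -0.638 for Cep97 (15).

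Mean BAF by mother, at 10 votes, uses the same values that chose the genes, in mothers whose embryos differed in stage and lane, and is given as a description. Obfc1 had 0.262 ± 0.159 (SD, n = 31) with B6 mothers, at a mean of 48.9 somites, and 0.341 ± 0.130 (n = 30) with F1 mothers, at 49.7. The difference of -0.0792 was -0.0653 within flowcell 1 and -0.154 within flowcell 2, and -0.0643 at 20 votes. Mean BAF with B6 and F1 mothers was 0.396 and 0.386 for Cxcl14 (48.9 and 49.7 somites), 0.540 and 0.577 for Txnl1 (47.4 and 50.9), and 0.628 and 0.541 for Cep97 (46.6 and 48.2). At each of the 4 genes the ranges of mean ± SD overlapped between mothers, which describes the spread of embryos and does not compare the means.

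Votes per 100 reads of a gene measure how much of its signal covers SNPs. In heterozygous N2 embryos with 10 votes, rho between BAF and votes per 100 reads was 0.143 for Obfc1 (61 embryos), 0.127 for Cxcl14 (70), 0.0951 for Txnl1 (25) and 0.481 for Cep97 (29), points that share lanes and depth. The rank correlation of BAF with somites was -0.464 for Obfc1, 0.398 for Cxcl14, 0.538 for Txnl1 and -0.654 for Cep97. Given votes per read, with the flowcells pooled, it was -0.461, 0.403, 0.569 and -0.614. At Obfc1 the direction in which lane BAF went with votes per read differed between the flowcells. A pooled value cannot adjust for such a relation, so the part of informative yield at Obfc1 was not tested by it.

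**Figure D4:**
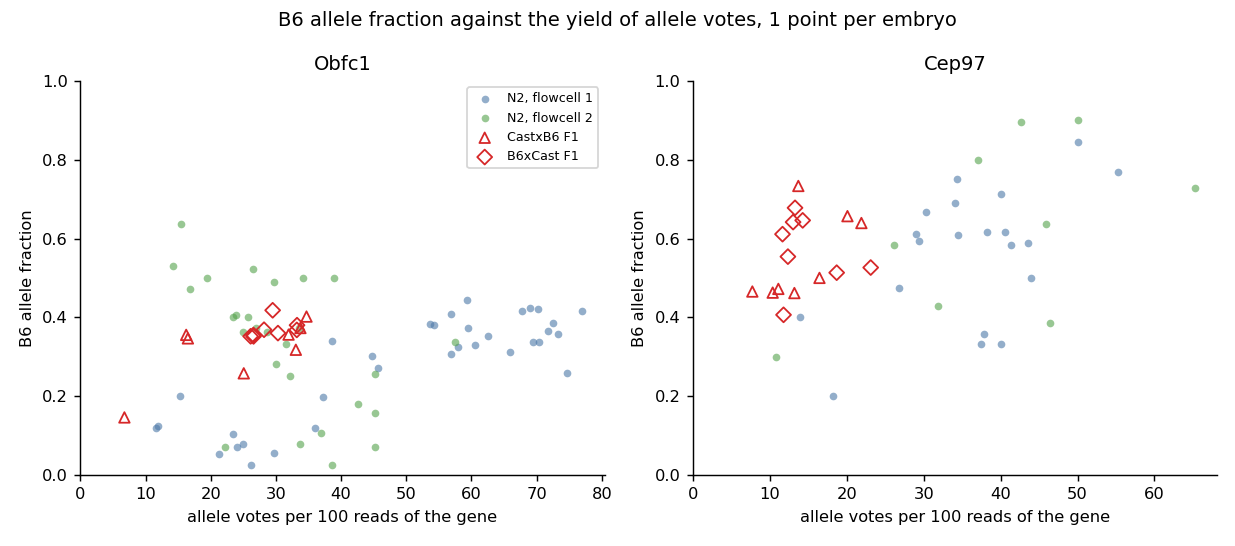
B6 allele fraction (y axis, 0 to 1) against allele votes per 100 reads of the gene (x axis) for Obfc1 and Cep97, 1 filled circle per heterozygous N2 embryo with at least 10 votes (coloured by flowcell) and 1 open red symbol per F1 embryo. The lowest F1 point of Obfc1 has a fraction of 0.146 at 6.76 votes per 100 reads, left of all other Obfc1 points.

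Votes scaled to library size in the same way as RPM (VPM) separate the alleles. In heterozygous N2 embryos the B6 allele of Obfc1 averaged 14.5, 8.47, 7.89 and 7.55 VPM over the 4 stages from 45 somites or fewer to 52 or more, while the Cast allele averaged 21.7, 14.7, 16.7 and 22. Both alleles were thus lower at 46 to 48 somites than before, and the Cast mean alone returned to its first value at the last stage. Votes per 100 reads of Obfc1 were 47.5, 33.2, 35.8 and 40.2 over these stages, and its total was 72.8, 59.4, 60.1 and 65.8 RPM. In B6/B6 embryos its B6 VPM was 28.1, 18.2, 12.6 and 18.2, at 46.4, 32.6, 26.1 and 32.6 votes per 100 reads. The part of informative yield in the Obfc1 means was not tested. Cep97 had B6 means of 6.64, 2.76, 1.41 and 1.24 and Cast means of 2.78, 1.68, 1.36 and 1.65. Its total was 25.2 RPM in the first and 16.8 in the last stage, and its votes per 100 reads were 35.9 and 15.6 (rho with somites -0.367), so informative yield moved with these values and its part in them was not tested. Cxcl14 had B6 means of 62.5, 50.9, 60.9 and 74.6 and Cast means of 103, 82.7, 94.7 and 103. The rank correlation with somites was -0.200 for the B6 and 0.0667 for the Cast allele of Obfc1 (70 embryos), 0.355 and 0.235 for Cxcl14 (66), -0.0296 and -0.0326 for Txnl1 (70) and -0.473 and -0.192 for Cep97 (83).

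Cxcl14 was the only gene of the 4 whose BAF was higher in the older than in the younger F1 litter of both crosses without overlap. The 4 embryos of CastxB6 litter 1 had 0.310, 0.335, 0.358 and 0.347, and those of litter 2 had 0.400, 0.378, 0.376 and 0.384. The 5 embryos of B6xCast litter 5 had 0.420, 0.413, 0.424, 0.407 and 0.392, and the 3 of litter 3 had 0.441, 0.444 and 0.432. Litter means in CastxB6 were thus 0.337 ± 0.0206 (SD, n = 4) at 41 to 43 somites and 0.385 ± 0.0109 (n = 4) at 46 to 48. In B6xCast they were 0.411 ± 0.0125 (n = 5) at 48 to 50 and 0.439 ± 0.00617 (n = 3) at 58 to 63. The younger pair of litters was CastxB6 and the older pair B6xCast, so between the pairs stage and cross cannot be told apart.

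The difference was 0.0471 in CastxB6 (exact permutation test, 2-sided p = 0.0286) and 0.0280 in B6xCast (exact p = 0.0357), in each case the smallest p those group sizes allow. Permuting within both crosses together gave an exact p of 0.000510, again the smallest possible. Of 9896 F1 genes with votes in every embryo, 2.96% were higher without overlap in the older CastxB6 litter, 2.51% in the older B6xCast litter, and 0.0808% in both. Each F1 litter had 1 mother, so stage and litter cannot be told apart. CastxB6 litter 2 was sequenced in 2 HiSeq runs and the other litters in 1 GAIIx and 1 HiSeq run, and the part of the run in the CastxB6 difference was not tested, whereas both B6xCast litters shared their runs.

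**Figure D5:**
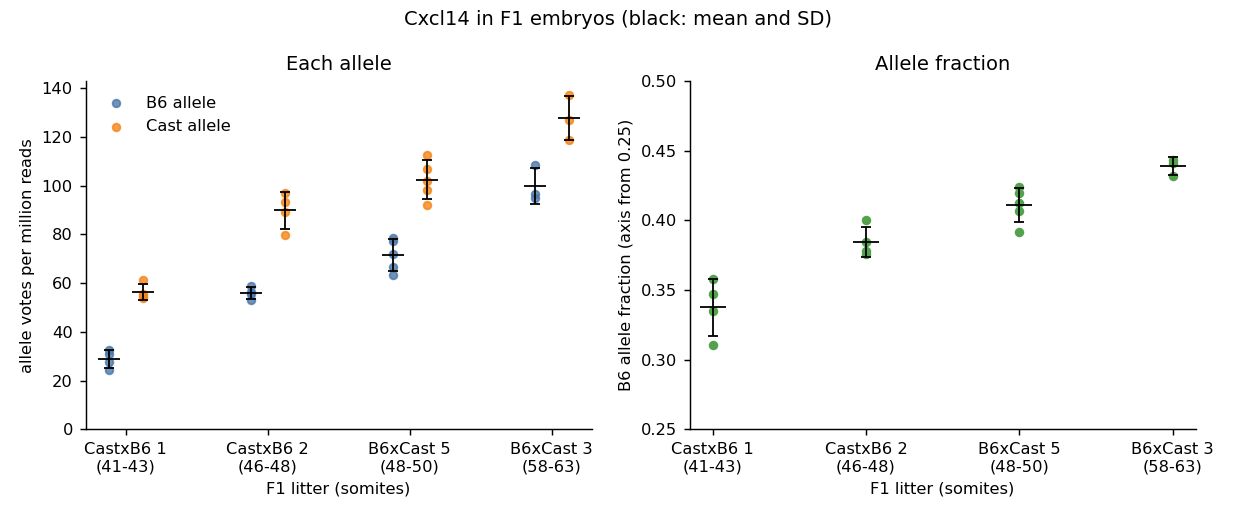
VPM of each Cxcl14 allele (left, y axis from 0) and B6 allele fraction (right, y axis from 0.25) in the 16 F1 embryos by litter (x axis, ordered by stage), 1 point per embryo, with black marks for the litter mean and SD. In both crosses all embryos of the older litter lie above those of the younger one, for each allele and for the fraction.

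Both Cxcl14 alleles had higher VPM in older litters, and the B6 allele by the larger factor. VPM is not scaled for library composition, which leaves the ratio of the alleles as it is but bears on each fold. In B6xCast the total of the gene was 1.41-fold in RPM, and its rise was smaller with composition scaling in edgeR (log2 0.32). The allele folds below lack such scaling. The B6 VPM averaged 28.8 and 56 in the younger and older CastxB6 litters (1.94-fold) and 71.6 and 100 in the B6xCast litters (1.40-fold). The Cast VPM averaged 56.4 and 89.9 (1.59-fold) and 102 and 128 (1.25-fold). Neither allele overlapped between the litters of a cross (exact p = 0.0286 for CastxB6 and 0.0357 for B6xCast, for each allele). Votes per 100 reads were 38.2 and 38.8 in CastxB6 and 40.3 and 37.3 in B6xCast, and did not separate the litters (exact permutation p = 0.714 and 0.0714).

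On the log2 scale, edgeR's quasi-likelihood test over 10049 genes gave a B6/Cast ratio of Cxcl14 higher by 0.30 ± 0.06 (SE) in the older CastxB6 litter (adjusted p = 0.0326). Of these genes 0.896% were called. In B6xCast the change was 0.17 ± 0.06 (edgeR adjusted p = 0.819), and edgeR called 0.0% of genes there, with 550 genes at an unadjusted p under 0.05 and 4 called by DESeq2 and 0 by limma. The mean of both crosses was 0.23 ± 0.05 (edgeR adjusted p = 0.0450, 0.239% of genes called), and the crosses differed by -0.13 ± 0.09 (edgeR adjusted p = 0.818, 0.179% of genes called).

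These adjusted values sat close to the threshold. In CastxB6 the call was lost without B6xCast embryo 2 (edgeR adjusted p = 0.0501) and without CastxB6 embryos 1 (0.0661), 2 (0.0976), 4 (0.0597), 5 (0.0987), 7 (0.0553) and 8 (0.0793), while the change stayed at 0.24 to 0.34. The mean of crosses lost its call in 12 of 16 such edgeR fits, namely without B6xCast embryos 1 (adjusted p = 0.118), 2 (0.128), 3 (0.114), 4 (0.0574), 5 (0.0789), 7 (0.0842) and 8 (0.0804) and without CastxB6 embryos 2 (0.106), 4 (0.0635), 5 (0.0905), 7 (0.0585) and 8 (0.0898), while the change stayed at 0.20 to 0.25. Limma on log2 vote ratios gave the same sizes with adjusted p = 0.216 in CastxB6 and 0.337 for the mean. With somite number as a continuous term over the 13 embryos that had one, the log2 ratio was 0.0177 ± 0.00522 per somite (edgeR adjusted p = 0.864).

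Obfc1 BAF in F1 embryos did not follow the N2 pattern. CastxB6 litter 1 had 0.402, 0.355, 0.146 and 0.346, and litter 2 had 0.258, 0.356, 0.373 and 0.318. B6xCast litter 5 had 0.351, 0.418, 0.368, 0.380 and 0.360, and litter 3 had 0.355, 0.352 and 0.368. The litters of each cross overlapped, and their means differed by 0.0137 (exact permutation p = 0.857) and -0.0173 (exact permutation p = 0.286). Embryo 3 of CastxB6, at 41 somites, stood lowest in BAF (0.146) and in informative yield, with 6.76 votes per 100 reads against 16.2 to 34.7 in the other F1 embryos.

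That embryo bore on the Obfc1 fits. The log2 ratio was higher by 0.06 ± 0.27 (SE) in the older CastxB6 litter (edgeR adjusted p = 1) and by -0.26 without that embryo (edgeR adjusted p = 0.676). In B6xCast it was -0.11 ± 0.28, and over both crosses -0.02 ± 0.20 (edgeR adjusted p = 1 for each). Over the 16 F1 embryos Obfc1 BAF correlated with votes per 100 reads (Pearson r = 0.704, p = 0.00905, and Spearman rho = 0.697, p = 0.00357, permutation tests, 1 of 4 genes so examined). Without the 2 embryos of most extreme yield r was 0.373 and rho 0.657, so the linear relation rested largely on those embryos, and embryos of 1 litter share mother and runs. The coefficient r was -0.0607 for Cxcl14, -0.106 for Txnl1 and 0.293 for Cep97 (permutation p = 0.826, 0.696 and 0.270).

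Txnl1 BAF in F1 litters stayed near parity. The embryos of CastxB6 litter 1 had 0.551, 0.532, 0.392 and 0.529, those of litter 2 had 0.545, 0.584, 0.474 and 0.432, those of B6xCast litter 5 had 0.521, 0.481, 0.510, 0.409 and 0.50, and those of litter 3 had 0.559, 0.533 and 0.487. Older litters overlapped younger ones in both crosses, with differences of 0.00810 (exact permutation p = 0.943) and 0.0422 (exact permutation p = 0.214). The log2 ratio changed by 0.14 ± 0.17 (SE) over both crosses (edgeR adjusted p = 0.942), an error that leaves room for a shift as large as that of Cxcl14.

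Cep97 moved the other way in F1 embryos than in the N2, without reaching the threshold. Its BAF was 0.657, 0.463, 0.465 and 0.472 in CastxB6 litter 1 and 0.733, 0.639, 0.50 and 0.462 in litter 2. It was 0.646, 0.554, 0.406, 0.526 and 0.513 in B6xCast litter 5 and 0.678, 0.611 and 0.642 in litter 3. Means were higher in the older litter by 0.0694 (exact permutation p = 0.371) and 0.114 (exact permutation p = 0.107), and together by 0.0919 (exact permutation p = 0.0684). The log2 ratio was higher by 0.49 ± 0.26 (SE) over both crosses (edgeR adjusted p = 0.721), whereas the N2 log odds per somite was negative.

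Total expression of Cxcl14 was higher in both older litters. The embryos of CastxB6 litter 1 had 192, 223, 230 and 248 RPM and those of litter 2 had 348, 367, 385 and 406. B6xCast litter 5 had 416, 434, 468, 435 and 404, and litter 3 had 642, 578 and 610, so the litters of a cross did not overlap. In edgeR it rose by 0.63 ± 0.09 (SE, log2) in CastxB6 (adjusted p = 0.000211) and by 0.32 ± 0.09 in B6xCast (adjusted p = 0.0265), where 29.1% and 15.0% of 15271 genes were called in either direction. The mean rise was 0.48 ± 0.06 (edgeR adjusted p = 0.000117), with 27% of genes called and 14.0% higher. In B6xCast the rise lost its call without embryo 1 (edgeR adjusted p = 0.104), 2 (0.0535), 3 (0.0775) or 8 (0.0643).

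Scaled for library composition in edgeR, Cep97 total expression fell by 0.33 (log2, SE 0.09, adjusted p = 0.0184) over both crosses. The fall was smaller in RPM, which lacks that scaling. Litter means were 17.7 and 18.7 RPM in the younger and 16.0 and 16.1 in the older litters. Older litters thus stood at 0.905 of the younger in CastxB6 and 0.865 in B6xCast (exact permutation p = 0.0638 over both crosses). Without B6xCast embryo 1 the edgeR adjusted p was 0.0539. Within single crosses it gave -0.27 ± 0.13 (edgeR adjusted p = 0.141) and -0.39 ± 0.14 (edgeR adjusted p = 0.0677). Unscaled by the composition of the libraries, the RPM of older and younger embryos overlapped in both crosses.

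Txnl1 averaged 19.1 and 25.4 RPM in the younger and older CastxB6 litters and 14.4 and 21 in the B6xCast litters. Scaled for library composition, the mean log2 difference of 0.32 ± 0.12 (SE) had an edgeR adjusted p of 0.0509, and DESeq2 gave 0.0336. The edgeR value passed 0.05 without B6xCast embryo 3 (adjusted p = 0.0297) or 6 (0.0260), or CastxB6 embryo 1 (0.00992) or 7 (0.0422). Obfc1 had mean RPM values of 80.4 and 93.2 in CastxB6 and 97.5 and 90.5 in B6xCast, and log2 differences of 0.09 ± 0.10 (edgeR adjusted p = 0.564) and -0.29 ± 0.11 (edgeR adjusted p = 0.0848).

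N2 embryos homozygous for B6 carry no Cast allele at a gene and show its stage dependence on the B6 allele alone. Cxcl14 rose with stage in them, from a mean of 204 ± 65.2 RPM (SD, n = 14) at 45 somites or fewer through 231 ± 63.6 (n = 22) and 298 ± 63.9 (n = 33) to 349 ± 97.5 (n = 12) at 52 or more. The lowest, median and highest values were 113, 196 and 391 RPM in the first stage and 159, 355 and 513 in the last, so the stages overlapped while the medians stood apart. Spearman's rho was 0.600 over 81 embryos (q = 7.25e-07 over 9733 genes, permutation p = 1e-05, the smallest that 100000 permutations can give), and Pearson's r was 0.583 (permutation p = 2e-05). Without the 2 embryos farthest from the median stage r was 0.556. Of those genes 9.6% were called, 7.29% rising.

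The Cxcl14 relation was as strong with lane regressed out of the ranks (rho = 0.630, q = 4.35e-06, 4.85% of genes called). It passed in embryos of B6 mothers (rho = 0.630, 48 embryos, q = 9.77e-05), gave rho = 0.493 over 33 embryos of F1 mothers (q = 0.0618) and 0.538 over 27 litter means (q = 0.161). In edgeR the slope was 0.10 ± 0.02 (log2 per somite, adjusted p = 3.92e-05).

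The other genes showed no called relation in B6/B6 embryos. Spearman's rho was -0.166 for Obfc1 (77 embryos, q = 0.368), -0.0664 for Txnl1 (77, q = 0.758) and -0.143 for Cep97 (63, q = 0.498). Pearson's r was -0.192, -0.0605 and -0.220 (permutation p = 0.0954, 0.602 and 0.0833). With lane regressed out these were 0.0880, 0.0394 and -0.00577. In heterozygous embryos, which the choice used, rho of total RPM with somites was 0.0273 for Obfc1, 0.372 for Cxcl14, -0.204 for Txnl1 and -0.299 for Cep97.

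Embryos carrying a Cast allele had higher total expression of the 2 genes with more Cast than B6 transcript. Obfc1 had 63.1 ± 21 RPM (SD, n = 70) in B6/Cast and 45.5 ± 17.3 (n = 77) in B6/B6 embryos, and with lane and somite number regressed out it was higher by 0.46 ± 0.07 (SE, log2) in heterozygotes (rank-sum test, q = 2.33e-10). Cxcl14 had 326 ± 99.6 RPM (n = 66) and 271 ± 84.3 (n = 81), a rise of 0.24 ± 0.05 (q = 2.49e-05), which was 0.13 with litter in place of lane (q = 0.0150). Heterozygotes were called higher at 9.77% of 9733 genes and 18.2% were called in either direction at q under 0.01.

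Cep97 had 18.1 ± 8.05 RPM (SD, n = 83) in heterozygotes and 20.2 ± 9.43 (n = 63) in B6/B6 embryos, a log2 difference of -0.19 ± 0.11 (SE) that just missed the threshold (q = 0.0101). With 15 principal components regressed out its q was 5.66e-05, and with a pseudocount of 0.1 it was 0.00854, whereas edgeR gave an adjusted p of 0.724. Txnl1 had 104 ± 122 RPM (n = 70) and 95.9 ± 113 (n = 77), a log2 difference of 0.04 ± 0.10 (q = 0.925). Predicting BAF from these totals, with the B6 allele of a heterozygote taken as 1 of the 2 equal alleles of a B6/B6 embryo, gave 0.360 for Obfc1, 0.415 for Cxcl14, 0.556 for Cep97 and 0.459 for Txnl1, beside pooled N2 fractions of 0.319, 0.395, 0.591 and 0.539. The Txnl1 prediction lay on the other side of equality from its measured fraction.

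Over F1 and heterozygous N2 embryos together, ASE favoured Cast at the same 2 genes. The pooled BAF was 0.348 for Obfc1 (88 embryos, paired test on VPM, Bonferroni-adjusted p = 4.23e-14) and 0.400 for Cxcl14 (86 embryos, 3.16e-35). Of 9084 genes 18.9% were called in either direction and 9.17% with Cast higher. Txnl1, at 0.530 (90 embryos), and Cep97, at 0.576 (103 embryos), were not called (Bonferroni-adjusted p = 1 for both), although with Benjamini-Hochberg adjustment in place of Bonferroni Cep97 passed (0.00495). Most of these embryos were heterozygous N2 ones, whose votes the choice of genes used. In the 16 F1 embryos alone, which it did not use, pooled BAF was 0.360 for Obfc1 and 0.401 for Cxcl14. The same paired test gave Bonferroni-adjusted p = 3.01e-05 and 2.95e-10 there.

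By direction of the cross, the log2 B6/Cast ratio of Cxcl14 was higher by 0.39 ± 0.05 (SE) in B6xCast than in CastxB6 embryos (edgeR adjusted p = 5.15e-05, 1.53% of genes called), but B6xCast litters were the older ones. Between the litters nearest in stage, CastxB6 litter 2 and B6xCast litter 5, the difference was 0.16 ± 0.06 (edgeR adjusted p = 0.355, 0.935% called). Its total expression followed the same course, at 0.73 ± 0.06 over all litters (edgeR adjusted p = 7.94e-07, 38.6% of genes called) and 0.25 ± 0.08 between the nearest ones (edgeR adjusted p = 0.0630, 11.8% called). Txnl1 total expression was lower in B6xCast over all litters (log2 -0.44 ± 0.12, edgeR adjusted p = 0.00837) and between the nearest ones (log2 -0.76 ± 0.16, edgeR adjusted p = 0.00733). Those litters differed in sequencing runs as well as in cross, and the part of the run was not tested.

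The mother's genotype gave no called difference in N2 total expression at any of the 4 genes (Mann-Whitney U test, Bonferroni-adjusted p = 1 for each, 5.03% of 9733 genes called). Unadjusted, that test gave p = 0.000115 for Obfc1, 0.00142 for Cxcl14, 0.114 for Cep97 and 0.476 for Txnl1. Obfc1 averaged 48.4 ± 20.2 RPM (SD, n = 89) with B6 and 61.2 ± 19.4 (n = 65) with F1 mothers. Cxcl14 averaged 277 ± 92.4 and 324 ± 89.1, both being lower with B6 mothers, whose lanes were also other lanes. With B6 and F1 mothers Txnl1 averaged 26.4 and 26.1 RPM in flowcell 1 and 138 and 245 in flowcell 2. The Mann-Whitney U test gave unadjusted p = 0.168 and 0.000344 there, again with lanes that differed between mothers.

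Genes of the pathways the 4 belong to were followed as lists. Over both F1 crosses 14.0% of all 15271 genes were called higher and 12.9% lower for total expression, with a median of 0.01 on the log2 scale, and the counts below are read against these shares. Of 18 telomere and CST genes other than Obfc1 that were tested for F1 total expression over both crosses, Dkc1 rose (log2 0.41 ± 0.10, SE, edgeR adjusted p = 0.00553) and Nhp2 (-0.54 ± 0.07, 0.000101) and Pola2 (-0.30 ± 0.06, 0.00164) fell. Dkc1 and Nhp2 are partners in the box H/ACA particle of telomerase RNA, and Pola2 is a subunit of polymerase alpha. The 3 of 18 called lie below the 27% of all genes, and the list median was -0.11. Dkc1 rose in CastxB6 (log2 0.90, edgeR adjusted p = 0.000351) and gave -0.07 in B6xCast (edgeR adjusted p = 0.764), whereas Nhp2 fell in both (-0.76 and -0.31). In B6/B6 embryos Nhp2 was the 1 gene of 14 called against somites (rho = -0.432, q = 0.00229), a share near the 9.6% of all genes.

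Of 8 CXC chemokines and receptors other than Cxcl14 tested, 4 were called higher and 1 lower in the mean of the F1 crosses, with a list median of 0.48 for that mean, 0.02 in CastxB6 and 0.09 in B6xCast. Cxcl16 (log2 0.49 ± 0.10, SE, edgeR adjusted p = 0.00256), Cxcr7 (0.47 ± 0.15, 0.0294), Ppbp (0.53 ± 0.18, 0.0420) and Cxcr5 (0.71 ± 0.25, 0.0447) were higher, and Cxcr4, the receptor of Cxcl12, was lower (-0.34 ± 0.10, 0.0172). Each of the 5 was called in 1 cross and not in the other, with log2 values in CastxB6 and B6xCast of 0.04 and 0.94 for Cxcl16, 0.86 and 0.08 for Cxcr7, 0.96 and 0.10 for Ppbp, -0.01 and 1.42 for Cxcr5, and -0.09 and -0.59 for Cxcr4. These 5 genes averaged 0.593 to 5.56 RPM in F1 embryos, beside 399 for Cxcl14. None of 4 was called against somites in B6/B6 embryos.

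Of 20 thioredoxin system genes other than Txnl1, 4 were called higher (Txndc15, Txndc16, Txndc17 and Glrx) and 2 lower (Nxn and Glrx3) in the mean of the F1 crosses, near the 27% of all genes called, with log2 values from 0.71 ± 0.18 (SE) for Glrx to -0.28 ± 0.10 for Glrx3 in edgeR and a list median of 0.000112. Of these 6, Txndc17 was called in B6xCast alone and the others in CastxB6 alone. Of 21 centriole genes other than Cep97, 3 were called lower, near the 12.9% of all genes, and 0 higher, namely Poc1b (log2 -0.43 ± 0.11, SE, edgeR adjusted p = 0.00740), Cep164 (-0.36 ± 0.06, 0.000431) and Kif24 (-0.32 ± 0.09, 0.0173), with a list median of 0.01. Cep164 was called in both single crosses, and Poc1b and Kif24 in CastxB6 alone. Kif24 is a kinesin that works with Ccp110 and Cep97 at the centriole. In edgeR no gene of the 4 lists other than Cxcl14 was called for a change in allele ratio over both F1 crosses.

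Of the 8 embryo tissue markers, 3 were called higher and 4 lower in the mean of the F1 crosses, against 27% of all genes called in either direction. Over both crosses Alb rose by 1.48 ± 0.17 (SE, log2, edgeR adjusted p = 4.54e-05), Afp by 0.94 ± 0.11 (5.11e-05) and Myog by 0.50 ± 0.14 (0.0130), and Hba-x gave -1.88 ± 0.13 (6.74e-07), Hbb-y -0.90 ± 0.12 (0.000154), Myl7 -0.59 ± 0.10 (0.000664) and Pax6 -0.36 ± 0.12 (0.0333). Pax6 was called in B6xCast alone and Myog in CastxB6 alone. Their part in the change of Cxcl14 was not tested.

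Lane-adjusted expression over 154 N2 embryos was compared between each gene and 10007 others. Cxcl14 was most like Tmem8c (rho = 0.672), Ttr (0.660) and Col9a3 (0.656), all on other chromosomes. Obfc1 was most like Cwf19l1 (0.603) and D19Wsu162e (0.549), which lie on chromosome 19 and had the same genotype as Obfc1 in 98.7% and 100% of embryos, and then Sel1l (0.521). D19Wsu162e is also the gene just outside the threshold for BAF against somites. Txnl1 was most like Xpo1 (0.693), Hprt (0.688) and Cltc (0.687), and Cep97 like Ammecr1l (0.516), Flt1 (0.501) and Cep250 (0.498).

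The nearest informative genes on either side shared the genotype of the 4 genes in 96.8% to 100% of embryos. Beside Obfc1, rho of BAF with somites was 0.0242 at Sh3pxd2a, 36.6 kb away, and 0.0985 at Gsto1. It was -0.104 at Pcbd2 and -0.135 at Tgfbi beside Cxcl14, 0.106 at Hmgxb3 and -0.131 at Fech beside Txnl1, and 0.253 at Alcam and 0.0670 at Senp7 beside Cep97. The 4 genes were chosen on this measure and their neighbours were not, so the smaller size of these 8 values carries no test. Distances ran from 36.6 kb for Sh3pxd2a to 3446 kb for Alcam. D19Wsu162e, not an adjacent gene but with the genotype of Obfc1 in 100% of embryos, had -0.441.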

How the data were processed

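3SEQ reads of 16 F1 and 154 genotyped N2 embryos were analysed from tables the authors deposited. Per the submitters' processing notes and the study's methods, the authors trimmed poly(A), mapped reads with Bowtie2 to mm9 and to a Cast genome built from known SNPs, discarded reads with a near-equal second hit, and counted exon reads per RefSeq gene, and F1 HiSeq reads were cut to GAIIx length. The deposited totals are raw counts of reads. The deposited allele votes are estimated counts, each SNP of a read giving its share of 1 vote and SNPs near Cast indels being left out. The deposited N2 genotypes came from a hidden Markov model over each chromosome. Each F1 column pools the 2 runs of an embryo. Of the N2 columns, 8 that matched no labelled mother were not used.

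Reads per 1000000 (RPM), and votes scaled in the same way (VPM), were computed from the total count of a library. Libraries of 245220 reads give a coarser RPM than those of 38234229, and votes set the precision of BAF. Votes were rounded and fitted with edgeR 4.0.16 (quasi-likelihood, embryo as a term, allele by litter, at least 20 votes in every litter) on R 4.3.3, and counts with edgeR after TMM and filterByExpr, with Benjamini-Hochberg adjustment at 0.05. DESeq2 1.42.0 and limma 3.58.1 (pseudocount 1) were alternatives. N2 tests were Spearman correlations, rank-sum and Mann-Whitney U tests and a paired t-test for ASE, over genes of at least 5 RPM (ASE: 20 votes per cross), on log2(RPM + 1) where lane and somites were regressed out, in Python 3.11.15 with scipy 1.17.1 and statsmodels 0.14.6. The thresholds were q under 0.1 (BAF against somites), 0.05 (totals against somites) and 0.01 (own genotype), and a Bonferroni-adjusted p under 0.01 for mother and for ASE, the latter also requiring a BAF outside 0.45 to 0.55. Single values used exact permutations, or 100000 permutations for 10 or more values. Scripts were tested on simulated data. Replicates are separate embryos, and embryos of a litter share a mother, so p-values measure the spread between embryos.

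The genes and lists were chosen with earlier results of these data known. Genes named besides the 4 are list members that passed a test, the 3 genes most correlated with each, its nearest informative neighbour on either side, and the genes at the threshold of BAF against somites. Gene positions came from a GENCODE annotation of mm9.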

Additional observations from a re-analysis of the deposited data

Results flagged for a closer look

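Dixon's test was applied to 60 groups of 4 to 10 embryos, in which chance gives about 1 in 20 groups a value set apart at this level, and 3 were found. Obfc1 had a BAF of 0.418 in B6xCast embryo 5, above the other 7 embryos of that cross. Txnl1 had 0.392 in CastxB6 embryo 3, below the other 3 embryos of litter 1, from 97.0 votes. Cep97 had 0.657 in CastxB6 embryo 1, above the other 3 embryos of litter 1, from 102 votes. No change of the 4 genes between litters differed between the crosses at an edgeR adjusted p under 0.05.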

How the results depend on the processing

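No paired analysis was possible because replicate numbers only name embryos in accession order and embryos of different litters share no pairing. Among F1 genes called for a change in allele ratio, limma gave 49 in CastxB6 (90 in edgeR) and 3 over both crosses (24), DESeq2 gave 4 in B6xCast (0), and somite number as a continuous term gave 0, with an unadjusted p under 0.05 at 491 of 9392 genes. Leaving out each embryo gave 43 to 116 genes in CastxB6 (43 without CastxB6 embryo 4), 0 to 1 in B6xCast and 11 to 32 over both crosses (11 without B6xCast embryo 3), and 997 to 2856 genes for total expression in B6xCast (2287 in the full set, 997 without B6xCast embryo 2). By direction of cross DESeq2 called 427 allele ratios and the litters nearest in stage 94, against 154. For BAF against somites, 10 genes became 17 at 10 votes, 5 at 50 votes, 2 with lane regressed out, 63 with B6 mothers, 2 with F1 mothers, 1 in flowcell 1, 2 in flowcell 2, 1 over litter means and 1 at 10 votes with lane regressed out. For totals in B6/B6 embryos, 934 became 472 with lane regressed out, 2692 with B6 mothers, 452 with F1 mothers and 94 over litter means. Own genotype called 1087 genes with nothing regressed out and 2728 with 15 principal components, against 1776, and ASE 1105 in F1 embryos only and 2889 with Benjamini-Hochberg adjustment, against 1714. Mother called 0 genes over litter means (1279 of 9733 at an unadjusted p under 0.05), 212 in flowcell 1 and 24 in flowcell 2, against 490. Among the 4 genes only values that were not called changed sign. Leaving out each embryo took the log2 ratio change from -0.26 to 0.26 for Obfc1 and from -0.14 to 0.20 for Txnl1 in CastxB6, and from -0.185 to 0.0781 for Obfc1 over both crosses. Over both crosses Obfc1 was also 0.0257 in limma and 0.00985 per somite in the continuous fit, and the Cep97 ratio by cross was -0.25 between the litters nearest in stage. In B6/B6 embryos rho with lane regressed out was 0.0880 for Obfc1 and 0.0394 for Txnl1, rho of Txnl1 with F1 mothers was 0.235, and edgeR with lane gave a log2 slope per somite of 0.0315 for Txnl1 and 0.0252 for Cep97. The own-genotype difference of Txnl1 was -0.0533 with litter in place of lane, and in flowcell 2 the difference by mother was -106 RPM for Txnl1 and 2.64 for Cep97. The cause of these changes was not tested. Fits with lane or votes per read as a term, each lane left out, 10 votes with lane regressed out and Cep97 at 20 votes were chosen after seeing the data. Depth limits Txnl1 and Cep97 most, with medians of 6 and 7 votes per heterozygous N2 embryo.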
